A study of Drosophila melanogaster with 3 samples.

Results

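The Hippo pathway genes are 10 genes of Drosophila melanogaster, taken as a fixed list of names out of 13945 protein-coding genes on the 6 main chromosome arms. They fall into 5 upstream members (ex, Mer, kibra, ft and ds) and 5 core members (hpo, sav, wts, mats and yki), where upstream means earlier in the signal and not a position on DNA. The rule names the genes and uses no signal or peak of these data, though the list was drawn up with earlier results of these data known. A member's summits are those within 10 kb either side of the gene, where a summit is the point of highest enrichment in a called peak.

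The assay was chromatin immunoprecipitation with sequencing of tj-eGFP, a protein of the transcription factor Traffic jam (tj) with green fluorescent protein fused at its C-terminus. The samples were 3 biological replicates of 1 transgenic line, all whole adult females of unknown age, precipitated with an antibody against GFP. Their chromatin was sonicated to 200 to 800 bp. There was 1 group, so no treatment or genotype was compared, and the same protein could bind in different tissues of the fly. Binding in more cells and more binding per cell cannot be told apart in such a sample.

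Hippo signalling limits organ growth. The kinase Hpo, with its scaffold Sav, activates the kinase Wts, with its cofactor Mats, and Wts phosphorylates the coactivator Yki and keeps it out of the nucleus. The membrane-associated proteins Ex, Mer and Kibra promote this cascade at the apical cell cortex, and the large cadherins Ft and Ds act on it as receptor and ligand. In the ovary the pathway acts in somatic follicle cells, and Tj, a large Maf factor, is known for its role in the somatic cells of the gonad.

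The 4 intronic sites shown here carry the strongest own summits of the 3 members with the highest signal, with the intron 2 site of wts added. That site, at a mean relative signal of 2.64 (defined below), is not the next strongest. Another summit in wts intron 1 (4.35) and one in ex intron 1 (3.47) were stronger and are not printed. The windows of both hold none of the motifs searched. Each is 201 bases of NCBI Release 6 (dm6), the summit in the middle, written 5′ to 3′ on the plus strand. Capitals mark matches to the motifs searched: the Maf core TGCTGAC, the AP-1 type site TGACTCA, the Scalloped type site CATTCC, the GAGA factor site GAGAG, and the palindromic Maf element (TGCTGAC followed directly by TCAGCA, up to 2 mismatches), each on both strands. The first lies in intron 1 of ex at chr2L:435656-435856, the next in intron 1 of kibra at chr3R:14717798-14717998, the next in intron 1 of wts at chr3R:30803674-30803874, and the last in intron 2 of wts at chr3R:30794730-30794930.
ex intron 1: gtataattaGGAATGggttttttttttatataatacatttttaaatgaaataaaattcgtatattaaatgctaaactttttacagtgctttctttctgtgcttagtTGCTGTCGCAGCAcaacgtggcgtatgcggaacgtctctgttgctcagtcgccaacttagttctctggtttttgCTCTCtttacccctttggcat
kibra intron 1: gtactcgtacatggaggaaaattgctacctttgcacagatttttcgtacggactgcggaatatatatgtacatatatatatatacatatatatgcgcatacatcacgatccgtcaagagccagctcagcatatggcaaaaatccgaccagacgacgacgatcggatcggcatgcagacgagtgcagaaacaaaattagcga
wts intron 1: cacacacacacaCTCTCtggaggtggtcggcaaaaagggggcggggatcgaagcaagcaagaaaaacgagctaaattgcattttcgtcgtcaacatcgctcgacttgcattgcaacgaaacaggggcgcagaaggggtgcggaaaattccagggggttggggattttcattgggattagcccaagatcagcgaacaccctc
wts intron 2: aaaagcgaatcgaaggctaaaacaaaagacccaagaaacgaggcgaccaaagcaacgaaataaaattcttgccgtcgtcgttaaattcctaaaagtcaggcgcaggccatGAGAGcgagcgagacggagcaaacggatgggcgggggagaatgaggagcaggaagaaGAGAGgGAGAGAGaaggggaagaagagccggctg

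The ex window holds the palindromic Maf element from base 107 with 2 mismatches, A6T and T8G, counted from 1 at the 5′ end of the element. It also holds a Scalloped type site from base 10 and a GAGA site from base 181. The kibra window holds none of the 5 motifs. The wts intron 1 window holds 1 GAGA site, and the wts intron 2 window holds 4 overlapping or neighbouring GAGA sites. A match describes the letters and is not by itself a site of binding.

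Tj-eGFP summits lay at most members, but their strength differed widely between genes. Of the 10 members, 9 had a summit of the reproducible list within 10 kb (4 of 5 upstream and 5 of 5 core members), beside 73.1% of all coding genes. That list, here called the IDR list after the irreproducible discovery rate, holds 10688 summits whose ranking recurred between replicates. Within 1000 bp of a transcription start site (TSS), 7 of 10 members had a summit (3 of 5 upstream and 4 of 5 core members), beside 36.4% of all coding genes. Between gene start and end, 6 of 10 did (3 upstream and 3 core), beside 21.5%. A summit in the gene or within 1000 bp of its TSS is called the gene's own, and 8 of 10 members had at least 1 (3 upstream and 5 core), beside 38.6%. The members are longer than most genes, with a median length of 10.4 kb against 2.17 kb over all coding genes, and their median number of distinct TSSs was 1 in both. The part of length in these shares was not tested.

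The windows of the 10 members held 67 summits in 57 peak regions, none counted for more than 1 member. Upstream members held 40 and core members 27. Their windows differ in length, so that upstream members had 0.162 summits per kb of window and core members 0.212, beside 0.114 over the windows of all coding genes. Both upstream figures rest on single genes. Of the 246.2 kb of upstream window, 95.0 kb belonged to ds, which held no summit. The window of kibra alone held 25 of the 40 upstream summits. All 67 had a summit within 200 bp in each of the 3 relaxed replicate lists of 30000, where neighbouring summits can share a match. Of all 10688 IDR summits, 10265 did. Against the 10688 strongest summits of each replicate list, 31 of the 40 upstream and 22 of the 27 core summits were matched in all 3. By the same rule, 8177 of all 10688 IDR summits were matched. By place, 20 lay in an intron of the member, 6 in a 5′ UTR, 2 in a 3′ UTR, 4 outside the gene but within 1000 bp of its TSS, and the other 35 at neighbouring genes or between genes. Introns held 15 of the 40 summits of upstream members and 5 of the 27 of core members. These lay in 3 genes only, with 12 in kibra, 3 in ex and 5 in wts. No intronic share of all IDR summits is set beside these counts.

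**Figure D1:**
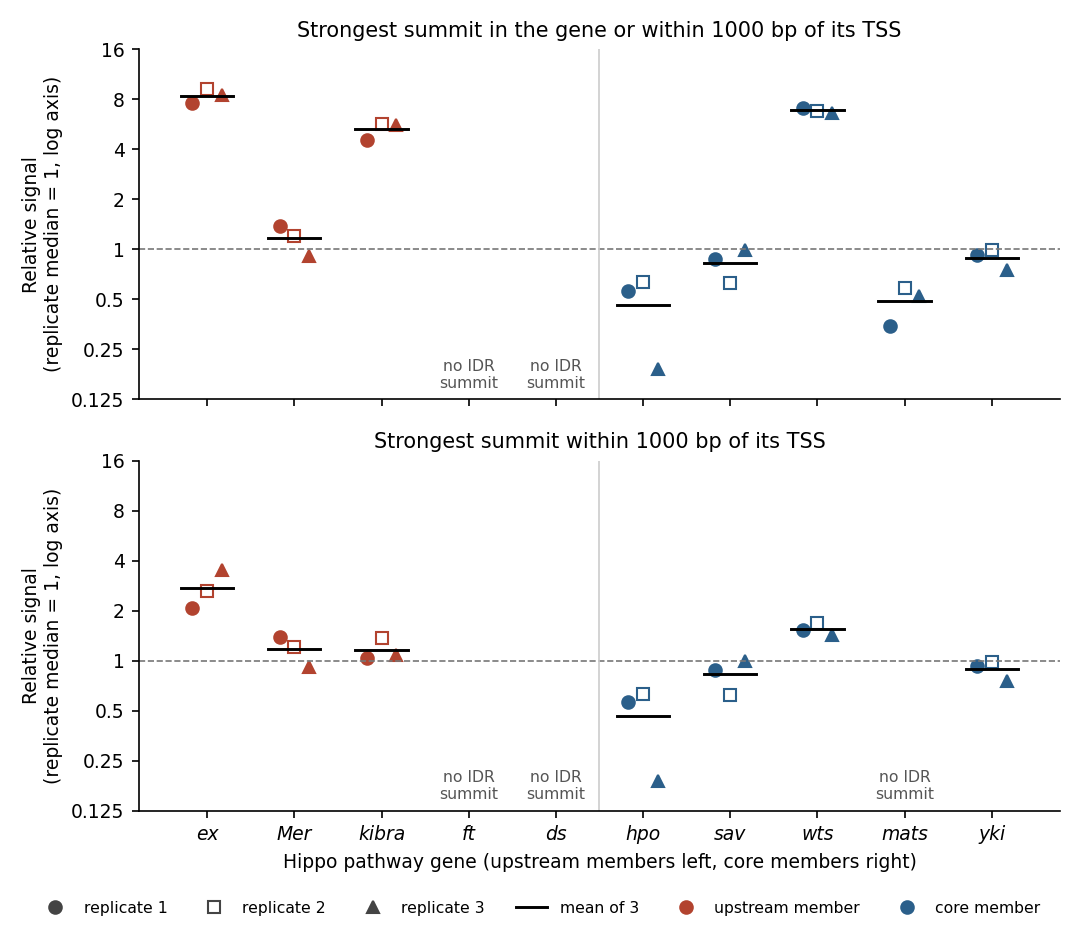
Relative signal of each member's strongest own summit (upper panel) and strongest summit within 1000 bp of its TSS (lower panel). Symbols are the 3 replicates, bars their mean, the log axis is scaled so that 1 is the replicate's median at IDR peaks; ex, kibra and wts stand above 4 in every replicate in the upper panel, and ft and ds have no own summit.

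Signal is the caller's enrichment value, which has no stated unit, so it is given relative to each replicate's median over IDR peaks. A relative signal of 1 is a middling peak of that replicate. The strongest replicate summit within 200 bp of the IDR summit was used, and neighbouring IDR summits can share a value. The plot of strongest summits shows 3 genes with own summits far above the median (ex, kibra and wts) and 5 near or below it (Mer, yki, sav, mats and hpo).

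Among the apical regulators, expanded (ex, FBgn0004583, chr2L:431227-448701, plus strand) encodes a FERM-domain protein of the apical cortex that is both an activator of the cascade and a reported target of Yki. Its window held 8 summits in 6 regions, 5 of them its own. The strongest lay in intron 1, 4529 bp past the TSS, at chr2L:435104-436249. Its relative signal was 7.56, 9.18 and 8.48 in replicates 1, 2 and 3, a mean of 8.41 ± 0.81 (SD, n = 3). It ranked 64th of the 10688 IDR summits, and stood at ranks 90, 29 and 96 in the 3 replicate lists of 30000. Its strength exceeded the strongest own summit of 98.8% of the coding genes that had any.

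A second intronic summit of ex, 1092 bp past the TSS, had relative signals of 3.56, 2.79 and 4.05. The promoter summit, 38 bp past the TSS in the 5′ UTR, had 2.07, 2.63 and 3.52, a mean of 2.74 ± 0.73. The intron 1 site was thus 3.13 times the promoter site (geometric mean over replicates), and higher in 3 of 3 replicates. It was picked as the strongest own summit in a list made from these replicates. That it stood above the promoter site follows largely from this choice. A summit 4759 bp past the TSS in the same region as the strongest had 0.84, 3.35 and 8.48, where replicate 3 has 1 summit for both. All 5 own summits of ex were among the 5344 strongest IDR summits. The summits outside ex lay at CG11885 (1.76 ± 0.35), at crq (1.58 ± 0.25) and between genes near BBS8 (0.44 ± 0.09).

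Merlin (Mer, FBgn0086384, chrX:19689697-19693500, minus strand) encodes the fly counterpart of the human tumour suppressor NF2. Its 2 own summits both lay at the promoter. The stronger, 52 bp past the TSS in the 5′ UTR, had relative signals of 1.38, 1.21 and 0.91, a mean of 1.17 ± 0.24. The weaker, 178 bp before the TSS, had 0.40, 0.45 and 0.65. The strongest summit in the window belonged to the promoter of dome, the JAK/STAT receptor gene, 27 bp from its TSS, at 1.57 ± 0.40. It held the only Maf core match among the 67 summits. The fourth lay 60 bp from the TSS of Ubqn, at 0.75 ± 0.23.

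Kibra (kibra, FBgn0262127, chr3R:14697689-14724261, minus strand) encodes a WW-domain scaffold that works with Ex and Mer. Its window held 25 summits in 20 regions, more than those of 99.8% of coding genes. Of 763 coding genes at least as long, kibra included, 21 had as many or more, as the plot of summits against gene length shows. By own summits, 72 of these 763 had as many or more. Of the 13 own summits of kibra, 12 lay in intron 1 and 1 in the 5′ UTR. The strongest, 6363 bp past the TSS at chr3R:14717412-14718601, had relative signals of 4.52, 5.69 and 5.59, a mean of 5.27 ± 0.65, and ranked 285th of the IDR list. A summit of the same region 6144 bp past the TSS had 4.43 ± 1.21 and shares its values in replicates 1 and 3.

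The other 11 own summits of kibra were of middling or low signal, with means of 0.44 to 1.22. The promoter summit, 129 bp past the TSS, was among them, at 1.04, 1.37 and 1.08 (mean 1.16 ± 0.18). The intron 1 site, likewise picked as the strongest own summit, was 4.55 times as strong as this promoter site and higher in 3 of 3 replicates. Of the 13, 4 were among the 5344 strongest IDR summits, and the count of kibra thus comes mainly from weaker ones. The 12 summits outside the gene lay at its neighbours CG7530 (6 summits, up to 2.75 ± 0.54) and Meltrin, which encodes a metalloprotease (6 summits, up to 2.17 ± 0.07).

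**Figure D2:**
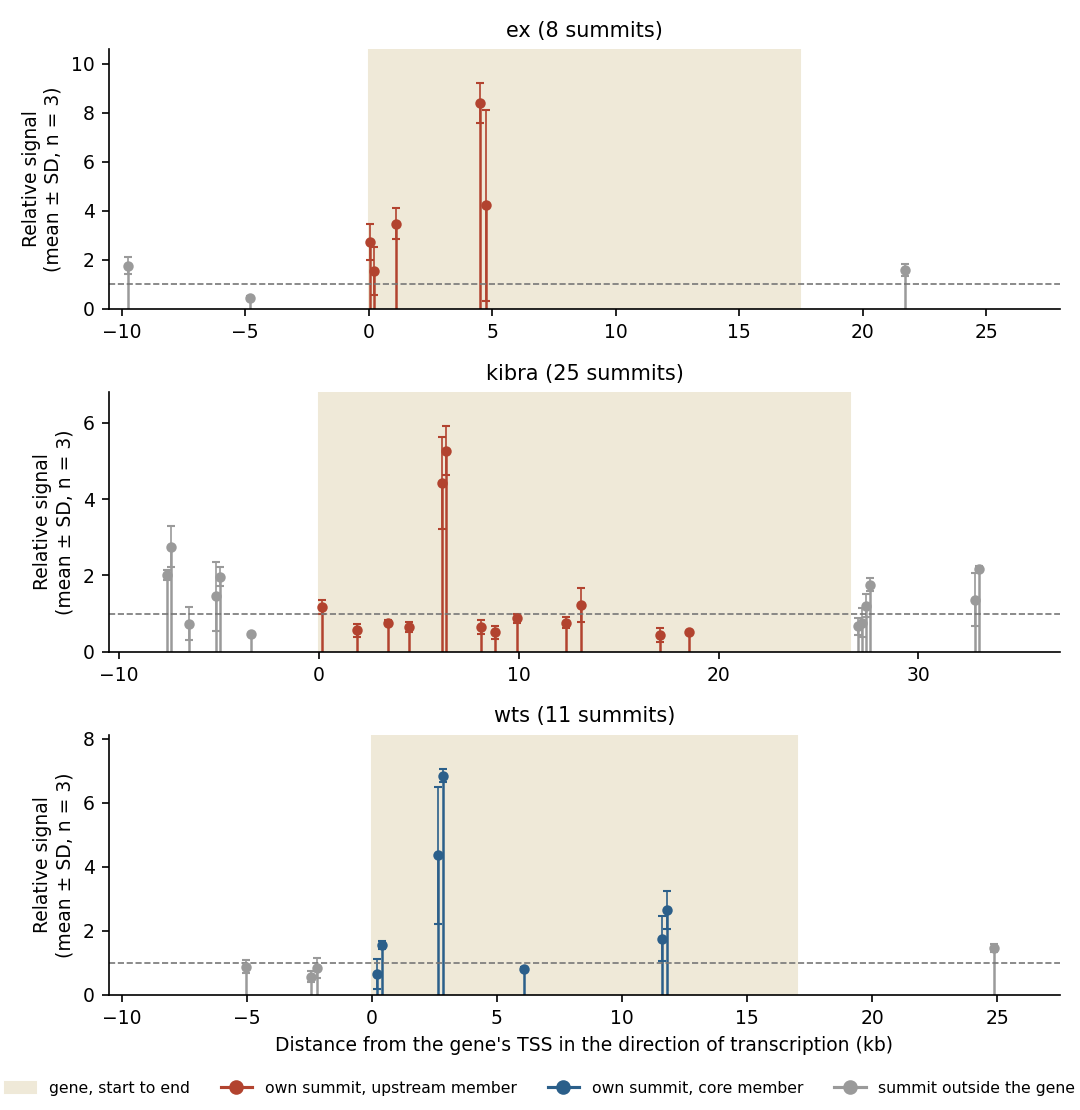
Summits within 10 kb of ex, kibra and wts by distance from the gene's TSS in kb, in the direction of transcription. Points are the mean relative signal of 3 replicates and error bars the SD, the shaded span is the gene, coloured points are own summits and grey points lie outside the gene; in each gene the highest point is in intron 1 and stands above the promoter point.

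The cadherin members had no own summit in the IDR list. Fat (ft, FBgn0001075, chr2L:4198404-4221796, minus strand) encodes the receptor of the branch. Its 3 summits lay beyond its 3′ end at Naprt, and the strongest, 659 bp from the TSS of Naprt, had 1.80, 2.05 and 2.12, a mean of 1.99 ± 0.17. Of 871 coding genes at least as long as ft, 359 had no summit between gene start and end. Dachsous (ds, FBgn0284247, chr2L:640013-714983, minus strand), the ligand, had no summit within 10 kb although it is 74971 bp long. Of 153 coding genes at least that long, 35 likewise had none, and their median was 4.

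**Figure D3:**
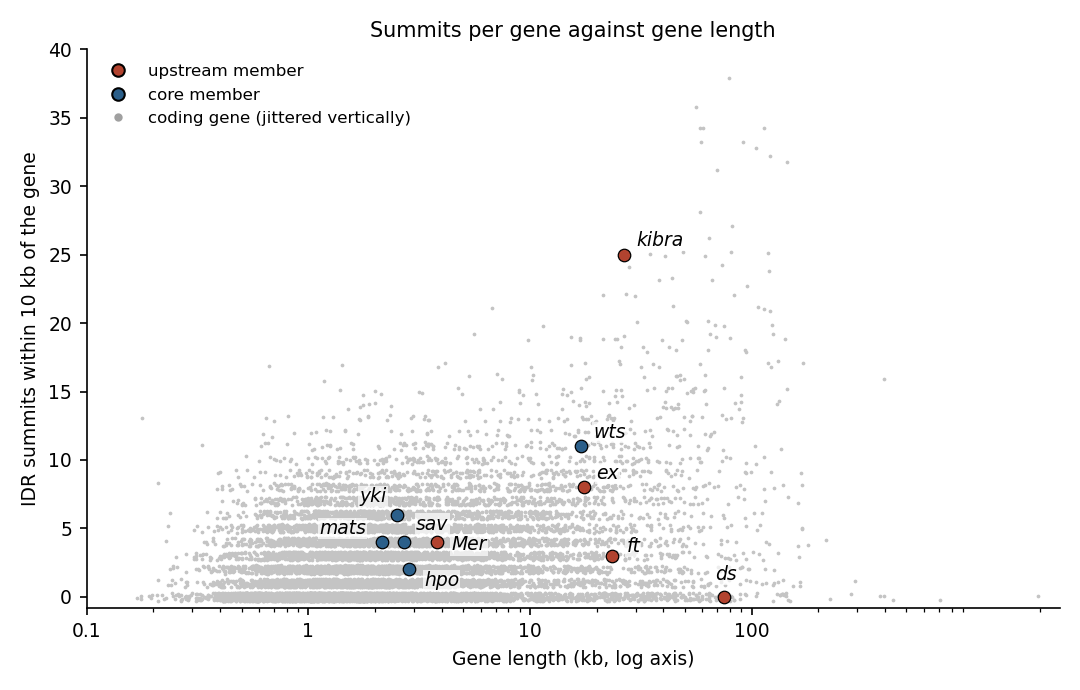
Number of IDR summits within 10 kb of the gene against gene length in kb (log axis) for the members and for all coding genes (grey, jittered vertically). The member kibra, with 25 summits, is among 21 of the 763 genes at least as long with that many or more, and ds, with 0, is the longest member.

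Among the core members, hippo (hpo, FBgn0261456, chr2R:19493996-19496856, minus strand) encodes the kinase that activates Wts. Its own summit lay 29 bp before the TSS and had relative signals of 0.56, 0.63 and 0.19, a mean of 0.46 ± 0.24. Replicate 3 was the lowest, and there the site ranked 19839th of 30000, against 8656th in replicate 1 and 8008th in replicate 2. The other summit, 7 bp from the TSS of Rep, had 1.10 ± 0.16.

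Salvador (sav, FBgn0053193, chr3R:23058609-23061304, minus strand) encodes the scaffold of Hpo. Its promoter summit lay 99 bp before the TSS and 90 bp from the TSS of Ublcp1, so it cannot be given to 1 of the genes. Its relative signal was 0.88, 0.62 and 0.99, a mean of 0.83 ± 0.19. A summit in the 3′ UTR of sav, weaker in the IDR list (rank 10023, against 6115 for the promoter summit), also lies in Ctns. Its relative signal of 1.48, 0.67 and 1.35, a mean of 1.17 ± 0.44, is above that of the promoter summit, and it shares the values of the neighbouring Ctns summit (1.35 ± 0.14) in replicates 1 and 3. The fourth lay 339 bp from the TSS of CG17111, at 0.76 ± 0.19.

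Warts (wts, FBgn0011739, chr3R:30789625-30806619, minus strand) encodes the kinase that phosphorylates Yki. Its window held 11 summits in 9 regions, more than those of 97.1% of coding genes, and 7 were its own. The strongest, in intron 1 at chr3R:30803278-30804534, lay 2845 bp past the TSS. Its relative signal was 7.07, 6.81 and 6.66, a mean of 6.85 ± 0.21, and it ranked 120th of the IDR list and 115th, 108th and 203rd in the replicate lists. The intron 2 site, 11789 bp past the TSS, had 2.50, 2.12 and 3.29, a mean of 2.64 ± 0.60. The stronger promoter summit of wts, 396 bp past the TSS, had 1.53, 1.69 and 1.42, a mean of 1.55 ± 0.14. The intron 1 site, likewise picked as the strongest own summit, was 4.44 times as strong and higher in 3 of 3 replicates. The 4 summits outside the gene lay at cindr (3) and in zfh1 (1), the strongest at 1.45 ± 0.14.

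The genes of Mats and Yki had low own signal beside stronger neighbours. Mob as tumor suppressor (mats, FBgn0038965, chr3R:22421161-22423302, plus strand) encodes the cofactor of Wts. Its own summit was in the 3′ UTR and had 0.35, 0.59 and 0.53, a mean of 0.49 ± 0.13. The strongest summit of its window lay 87 bp from the TSS of pinta and had 5.08, 5.06 and 6.23, a mean of 5.46 ± 0.67, at rank 295 of the IDR list. A summit 61 bp from the TSS of lqfR had 1.03 ± 0.38. Yorkie (yki, FBgn0034970, chr2R:24065975-24068485, minus strand) had 1 own summit, 380 bp before its TSS. That summit lies inside Gpat4, 108 bp from the TSS of Gpat4, and had 0.93, 0.99 and 0.75, a mean of 0.89 ± 0.12. The strongest summit in the window was that of Rap2l, 259 bp from its TSS, at 2.12 ± 0.43. The others lay at Rap2l, eEF5, RpL12 and RpL39.

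The strongest summit of a gene was picked by its signal in the IDR list, and then ordered by relative signal. Ordered in this way by own summits, the members ran ex, wts, kibra, Mer, yki, sav, mats and hpo. The 3 replicate values of ex, of wts and of kibra did not overlap those of the next gene in that order. Those of Mer and yki overlapped each other, as did those of yki and sav and of mats and hpo, and these pairs do not differ beyond their spread. Between sav and mats the values did not overlap. By relative signal alone the 3′ UTR summit of sav, at 1.17 ± 0.44, would place sav beside Mer and above yki, with values that overlap both. By the strongest promoter summit the order was ex, wts, Mer, kibra, yki, sav and hpo, and only ex, wts and kibra stood clear of the next gene.

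Of the 67 summits, 4 were in the strongest 5% of the IDR list, 6 in the strongest 10%, and 30 outside its 5344 strongest. The 4 were the intron 1 sites of ex, wts and kibra and the pinta promoter near mats. Thus 3 of the 4 strongest summits of the windows lay in intron 1 of a member and not at its promoter, as the maps of the summits of ex, kibra and wts show.

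Averaged over genes, the strongest summits within 10 kb were higher for upstream than for core members in 3 of 3 replicates, and this rested on ex. The mean log2 relative signal of the strongest summit within 10 kb was 1.76 over 4 upstream members and 1.37 over 5 core members. Only at ex, kibra and wts did that summit lie in the member. At Mer, ft, hpo, sav, mats and yki it lay outside the gene, at a neighbour. The difference between these means was 0.38, 0.34 and 0.47 in the 3 replicates, a mean of 0.40 ± 0.07 (exact two-sided permutation test over replicates, p = 0.25, the smallest that 3 replicates allow). Here and below, the SD and p cover repeat measurement of the same genes and not the spread between genes. The relative signals averaged here ran from 1.57 to 8.41 in upstream and from 1.10 to 6.85 in core members. Without ex it was -0.038 ± 0.11, a setting chosen after seeing the data. With own summits only, also chosen after seeing the data, it was 1.90 ± 0.10 for 3 upstream and 5 core members (exact permutation p = 0.25), and 1.31 ± 0.06 without ex. Over promoter summits it was 0.90 ± 0.26 for 3 upstream and 4 core members (exact permutation p = 0.25). Members without a summit (ds, and ft in the own and promoter sets) have no value and do not lower the upstream mean. In the own set, each value is the strongest of a gene's own summits, whose number differed. It was 5 at ex, 2 at Mer and 13 at kibra, against 7 at wts, 2 at sav and 1 each at hpo, mats and yki. Median gene length was 23.4 kb in upstream and 2.70 kb in core members. The part of summit number and length in these differences was not tested.

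**Figure D4:**
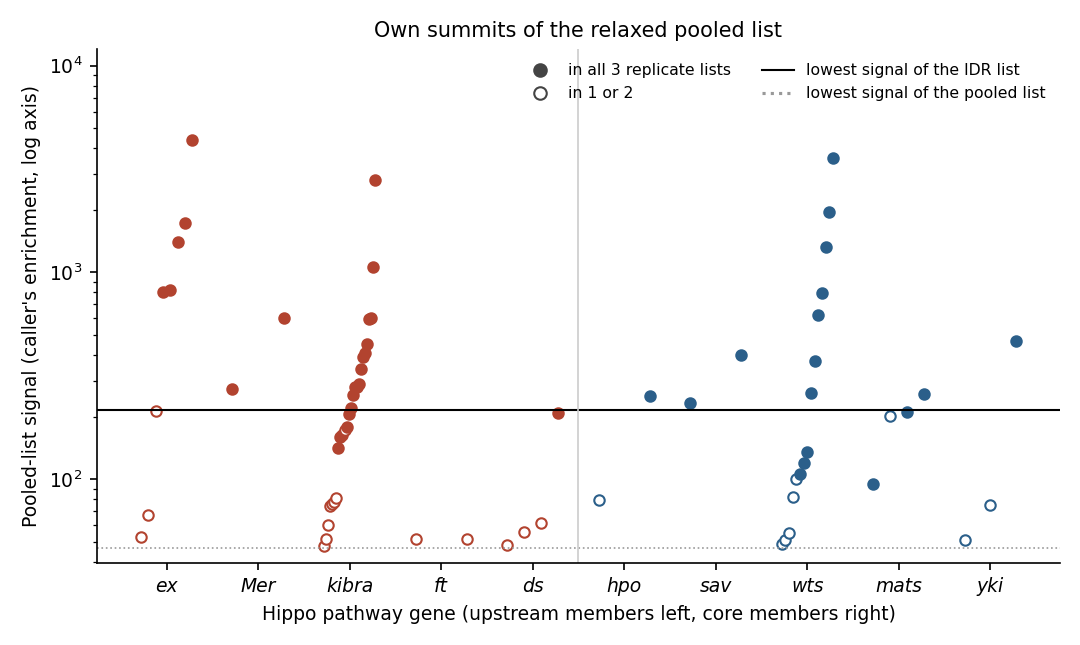
Signal of the own summits of each member in the relaxed pooled list (log axis, the caller's enrichment value). Filled points have a summit in all 3 replicate lists, open points in 1 or 2, the solid line is the lowest signal of the IDR list (215.6) and the dotted line that of the pooled list (46.4); filled points of kibra, ds and mats lie just under the solid line, and both ft points lie near the dotted line.

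The relaxed list of the pooled replicates, which holds 30000 summits and includes background, shows what lay under the reproducible list. The lowest signal of the IDR list was 215.6. In ds, a summit in intron 2 at chr2L:681945-682448 had a pooled signal of 208.9 at rank 10984, and relative signals of 0.47, 0.41 and 0.51. The other 3 ds summits of that list had signals of at most 61.5 and were each in 2 of 3 replicate lists. The promoter region of mats held summits with signals of 211.3, 202.3 and 95.3, of which the first, 421 bp past the TSS, had 0.48, 0.42 and 0.44. At ft the pooled list held 2 summits near its start with signals of 51.5 each, near the lowest of that list, and each was in 1 of 3 replicate lists. The plot of relaxed summits thus separates ds and mats, with sites close to the limit of the IDR list, from ft.

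Motifs were counted within 100 bp of the 67 member summits and of all 10688 IDR summits. The Maf core was found at 1 member summit (1.49%), against 6.84% of all IDR summits. The palindromic Maf element with up to 2 mismatches was found at 2 (2.99%), against 1.82%. These were the ex intron 1 site and a weak site in lqfR near mats, at 0.41 ± 0.04. The AP-1 type site, which shares its first 4 letters with the last 4 of the Maf core, was found at 2 (2.99%), against 2.70%. The GAGA site was found at 19 (28.4%), against 27.4%.

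The Scalloped type site, named for the DNA-binding partner of Yki, was found at 7 member summits (10.4%), against 7.70% of all. Of these 7, 2 were in intron 1 of ex and 3 in intron 1 of kibra, 1 of which held 3 matches. The others were at the sav and Ublcp1 promoters and at RpL39 near yki. The median GC content of the windows was 41.8% at member summits and 41.3% at all.

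The wider pathway was described by 70 further genes on 6 lists by role, of which 42 (60.0%) had a summit within 1000 bp of a TSS, beside the 36.4% of all coding genes. These genes have a median length of 11.8 kb and a median of 2 distinct TSSs, against 2.17 kb and 1 over all coding genes, and the part of this in the share was not tested. The lists differed, as the plot of promoter shares shows.

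**Figure D5:**
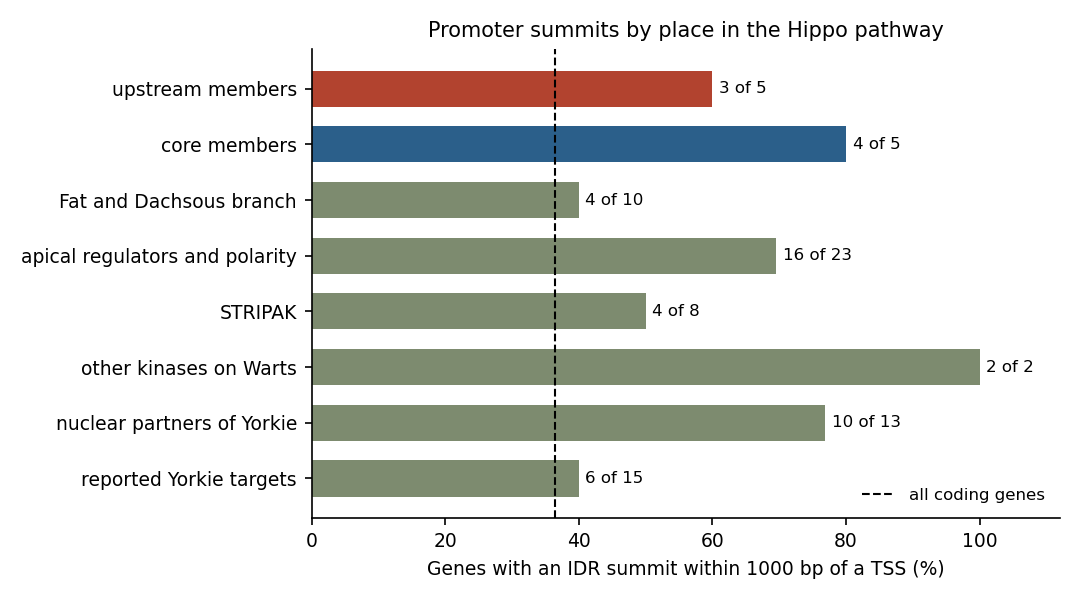
Share of genes with an IDR summit within 1000 bp of a TSS, in percent, for the upstream and core members and for 6 lists of other pathway genes, with the number of genes beside each bar. The dashed line is the share of all coding genes (36.4%); the lists of the Fat and Dachsous branch and of reported Yorkie targets (40.0% each) lie near it, and the apical regulators and nuclear partners of Yorkie lie above it.

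Near the membrane, 16 of 23 apical regulators and polarity genes had a promoter summit. The strongest promoter summits were at dlg1, a Scribble-complex scaffold (5.53, 6.27 and 6.90, a mean of 6.23 ± 0.69), at crb, the apical transmembrane protein that recruits Ex (3.60 ± 0.15), and at the kinase gene Sik2 (2.62 ± 0.40). At these genes the promoter summit was also the strongest own summit. At sdt the strongest own summit had 10.06 ± 1.66 (IDR rank 35), above that of ex, against 2.02 ± 0.28 at its promoter. At scrib it had 5.69 ± 0.47, against 1.06 ± 0.02. Both sdt and scrib were singled out after their values were seen. The Fat and Dachsous branch had 4 of 10, led by the kinase gene dco (1.80 ± 0.35), the palmitoyltransferase gene app (1.43 ± 0.38) and wap (0.88 ± 0.08, nearer the TSS of Usp2). Like ft and ds themselves, dachs and fj, which encode the myosin and the kinase of that branch, had no own summit in the IDR list, and both were singled out after their values were seen.

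Around the core kinases, 4 of 8 genes of STRIPAK, a phosphatase complex that acts on Hpo, had a promoter summit. They were led by the phosphatase subunit gene mts (2.04 ± 0.21, nearer the TSS of Rack1), Strip (1.46 ± 0.29, nearer that of Gtpx) and the scaffold gene Cka (0.67 ± 0.12). Slmap, Fgop2, Ccm3 and GckIII had none. Both other kinases that act on Wts had a promoter summit, hppy with 3.26, 2.70 and 3.19 (mean 3.05 ± 0.30) and msn with 1.80 ± 0.36, nearer the TSS of RpL8. The strongest own summit of hppy was that at its promoter, and that of msn, away from it, had 5.13 ± 0.75.

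In the nucleus, 10 of 13 partners of Yki had a promoter summit. They were led by the Brahma ATPase gene brm (3.71 ± 0.99, nearer the TSS of Arl1), sd, which encodes Scalloped (2.56, 2.23 and 2.57, a mean of 2.46 ± 0.19), and the Brahma-complex gene osa (2.18 ± 0.58, nearer the TSS of Pxt). The strongest own summit was the promoter summit at brm and sd, and at osa it lay away from the promoter, at 5.96 ± 0.61. The genes vg, tsh and hth had none. Of 15 genes reported as Yki targets, 6 had a promoter summit, led by the cell cycle factor gene E2f1 (2.49 ± 0.52), the actin gene Act5C (2.44 ± 0.42) and the cyclin gene CycE (1.07 ± 0.48). The microRNA gene of that list, mir-ban, had no summit within 1000 bp of its annotated start, though 6 lay within 10 kb. It was singled out after its values were seen.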

How the data were processed

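Peak lists on dm6 were used. Per the files' accompanying descriptions, the authors derived the replicate lists and the pooled list as relaxed lists that include background, and the IDR list from them. No source used here names the aligner, the peak caller or the threshold. As deposited, the signal is an enrichment value from the caller that carries no unit. Read depth is unknown, so no interval that needs it is given.

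From these lists, summits were assigned to genes of Ensembl release 115 (BDGP 6.54) on 6 arms, and sequence came from NCBI Release 6. Replicate summits were matched within 200 bp of an IDR summit (10265 of 10688 matched in all 3) and divided by the replicate's median there, 113.6, 242.1 and 160.6 for replicates 1, 2 and 3. The upstream minus core difference was tested by sign flips over replicates. Functions were tested on simulated data. Python 3.11.15, NumPy 2.4.6 and pandas 2.3.3 were used. Members, lists and the rule for named genes (all members, in each list the 3 genes with the strongest promoter summit and up to 5 without any, and genes at member summits) were chosen with earlier results of these data known. Of the further pathway symbols, 4 were matched by their current symbol.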

Additional observations from a re-analysis of the deposited data

How the results depend on the processing

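With the strongest 5344 summits alone, the windows of upstream members held 21 summits, against 40, and those of core members 16, against 27, by construction of the shorter list. Within the gene body alone the counts were 19 and 9. The number of members with a promoter summit ran from 5 to 8 over the alternatives run. The number with a summit in the window stayed at 9, except with the gene body alone in place of the window, where it was 6. The IDR list was not made anew without a replicate. With each replicate left out in turn, IDR summits were kept if matched among the 10688 strongest summits of each remaining replicate list. This left 8757 to 8892 of the 10688 IDR summits. These shorter lists gave 6 to 7 members with a promoter summit and 9 with a summit within 10 kb. They gave 32 to 33 upstream and 22 to 24 core summits, and 39 to 40 further pathway genes with a promoter summit. Counts below the main ones come from this filter, by construction of the shorter lists.

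The upstream minus core difference ran from 0.36 to 0.43 with 1 replicate left out, was 0.01 ± 0.10 over all summits in the windows (exact permutation p = 1), and was -0.038 ± 0.11 with ex left out, where its sign turned. It was 0.19 without kibra, 0.75 without wts, 0.67 without mats, 0.64 ± 0.24 with a match within 50 bp and 1.27 ± 0.23 over gene bodies. The settings that leave out ex, kibra, wts or mats, or that use own summits only, were chosen after seeing the data. Requiring a match within 50 bp left the strongest Mer window summit without a value. No comparison of conditions, paired or not, was possible because there was 1 group. The upstream minus core difference was paired in that both sides came from the same replicate. Peak lists without read counts limit every value to the caller's signal.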
